A study of Oryza sativa with 8 samples.

Results

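In shoots of rice seedlings, 55 probe sets at 52 loci gave a bright signal on every array of the variety Varadan and a dim one on every array of the variety Prasanna. They were chosen from 34860 probe sets that the deposited annotation pairs with a single locus, and these cover 25727 loci. A probe set is a group of short probes on the array designed against 1 transcript or transcript family. Each chosen probe set stood at or above 7 on the log2 scale on all 4 Varadan arrays and at or below 5 on all 4 Prasanna arrays. Control probe sets and 3 stretches of loci on chromosomes 2, 4 and 6 were set aside, and no probe set in those stretches met the levels. The choice used the difference between the varieties on all 8 arrays, so that difference is described below and carries no test.

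Prasanna and Varadan are rice varieties released by the Indian Institute of Rice Research, set side by side in this study for their contrasting response to low nitrogen. Seedlings grew in hydroponics in Yoshida nutrient solution, a standard medium for rice, and then stood either in the solution without nitrogen or in the solution with supplemented nitrogen. The 8 biotin-labelled arrays form 4 groups of 2: Prasanna without nitrogen, Prasanna with supplemented nitrogen, Varadan without nitrogen and Varadan with supplemented nitrogen. The tissue is given as 14 days old, while the stated germination of 7 days and first culture of 10 days in medium with nitrogen add up to more. Nothing in the labels says whether the replicates came from separate plants or cultures, so the spread between them may be technical.

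Varieties of a crop can differ in which genes they carry, in which of these are switched on in a tissue, and in the sequence of the copies they share. Array probes are short and were designed from known transcripts, so a transcript whose sequence departs from its probes binds them weakly even when it is abundant. A dim probe set therefore measures little hybridisation, which is a narrower statement than absence of the gene or of its transcript. Several probe sets were often designed against different transcript sequences of 1 locus, and these give separate readings of the same gene.

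The members spanned a wider range of mean levels in Varadan than in Prasanna, where the choice capped every array at 5. Their mean Varadan log2 signal ran from 7.20 to 13.67 with a median of 8.81. The mean Prasanna signal ran from 0.34 to 4.05 with a median of 2.42. Single arrays of the members ran from 7.001 to 14.09 in Varadan and from -2.08 to 4.99 in Prasanna. Among all probe sets with 1 locus, the median member stood at percentile 62.1 in Varadan and at percentile 6.05 in Prasanna. The highest Prasanna array of a member lay below its lowest Varadan array by 2.14 to 9.51 log2 units, with a median gap of 4.22. Whole shoots were measured, so fewer cells with a transcript and less of it per cell cannot be told apart. In 36 of the 55 probe sets the lowest Varadan array reached 8, in 9 it reached 10 and in 3 it reached 12.

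The array carries 64 reporter probe sets for foreign genes that wild rice plants lack, and these show what background looks like on this platform. Their median log2 signal ran from 2.16 to 3.87 over the 8 arrays, and 42 to 56 of the 64 lay at or below 5 on any one array. The median of the members on the Prasanna arrays, 1.95 to 2.33, lay below the reporter median of the same array on each of the 4. On the Varadan arrays the median of the members was 8.68 to 8.95, above the brightest reporter of any array, 7.49. The members with the lowest Varadan values, such as Os11g0695800 at 7.001, Os11g0576900 at 7.08 and Os11g0460700 at 7.09, lay below that brightest reporter. The rule held the members at or below 5 in Prasanna and at or above 7 in Varadan. The reporters had no such bounds, so both comparisons of medians were shaped by the choice and nothing is read from them.

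**Figure D1:**
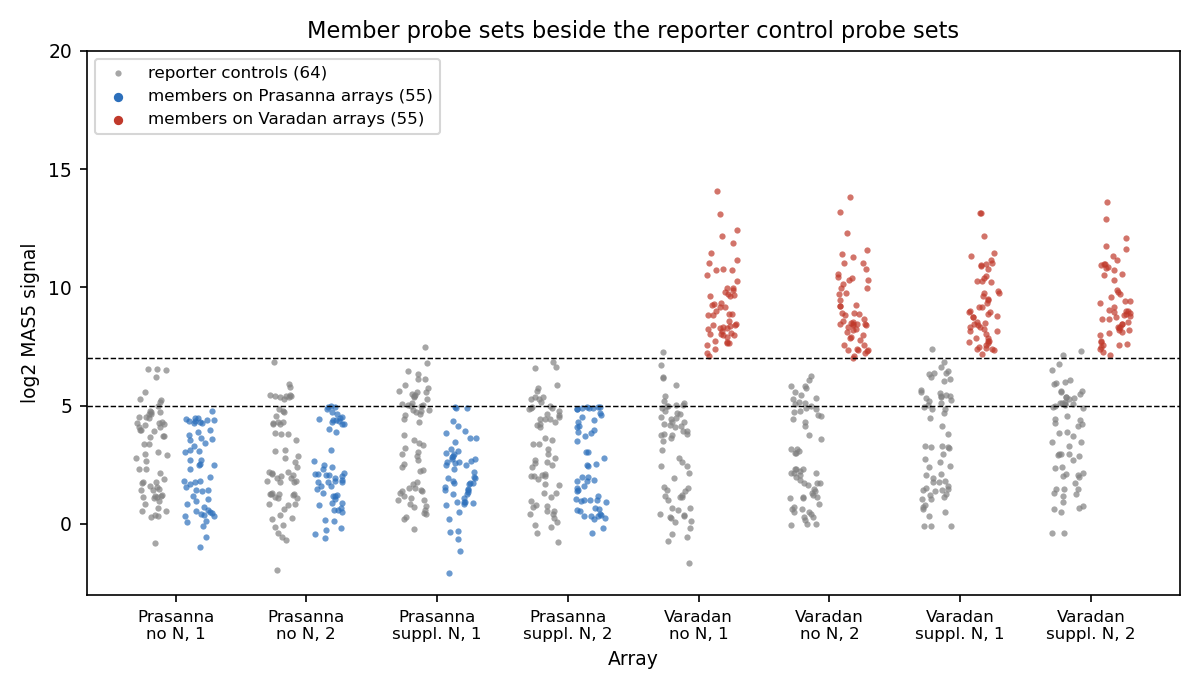
Log2 MAS5 signal (vertical axis) of the 55 member probe sets and of 64 reporter control probe sets on each of the 8 arrays. Each point is 1 probe set, sideways scatter within a column has no meaning, and dashed lines mark 5 and 7. Member points on Prasanna arrays lie at 5 or below among the grey reporter points, a few of them under the dimmest reporter, and those on Varadan arrays lie at 7 or above.

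Dim signals varied far more between arrays than bright ones. Within a member, the 4 Varadan arrays spanned a median of 0.86 log2 units and the 4 Prasanna arrays a median of 3.12. A Prasanna span of more than 2 units was seen in 42 members, so no order among dim Prasanna values is read here and no fold between the varieties is given for the members. The spread between Varadan replicates was close to that of other bright probe sets. Its median SD was 0.388 without nitrogen and 0.184 with supplemented nitrogen for the members, against 0.352 and 0.167 for all 17373 single-locus probe sets at or above 7 on every Varadan array.

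The 2 levels draw a line through a continuous distribution. Just outside the Varadan level were Os06g0314300, Os11g0126800 and Os01g0905800, whose lowest Varadan arrays stood at 6.96, 6.93 and 6.91. Just outside the Prasanna level were Os06g0301500, Os12g0105500 and Os05g0579500, whose highest Prasanna arrays stood at 5.03, 5.03 and 5.05, against 4.99 for Os05g0244700, 4.96 for Os06g0292400 and 4.94 for Os11g0460700 just inside it. Looser levels of 6.5 and 5.5 gave 112 probe sets, and stricter levels of 7.5 and 4.5 gave 32. One library weighed on the number: without Prasanna with supplemented nitrogen, replicate 1, 87 probe sets met the levels, and without any one of the other arrays 56 to 70 did.

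Measures of tissue and RNA give the setting of these values. The 11 probe sets of leaf markers, the Rubisco small subunit and light-harvesting genes, had array medians of 14.94 to 15.85 in Prasanna and 14.47 to 16.51 in Varadan. The 4 root markers (QHB, RAA1, Lsi1 and WOX11) had array medians of 5.19 to 6.98 in Prasanna and 6.73 to 8.58 in Varadan. Only the root silicon transporter Lsi1 reached 7 on every array of these shoots, at 9.58 or above. It averaged 9.99 in Prasanna and 9.82 in Varadan. The other root markers averaged higher in Varadan, and 1 of them stayed below 7 on all arrays. Of 27 probe sets whose gene name begins with GLU, which include glutelin seed storage proteins and other proteins, 19 stayed below 7 on all arrays. Array medians over these 27 were 4.96 to 5.501 in Prasanna and 5.36 to 6.25 in Varadan. Of 4 rice controls compared at both transcript ends, 1 separated the varieties. For GAPDH the 3′ probe set exceeded the 5′ one by 2.77 to 2.93 log2 units in Prasanna and 3.87 to 4.78 in Varadan. The other controls overlapped, at 3.84 to 5.11 and 4.34 to 5.01 for actin, 0.74 to 1.48 and 1.002 to 1.62 for cyclophilin, and -0.01 to 0.34 and -0.12 to 0.73 for ubiquitin. Further rice control probe sets for both ends, among them a dim second GAPDH pair, were not compared. The part of RNA quality or of root tissue in the members' values was not tested.

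The brightest member was Os12g0552500, a protein-coding locus. Its Varadan signals were 14.09 and 13.83 without nitrogen and 13.15 and 13.60 with supplemented nitrogen, and their mean stood at percentile 98.6 of the single-locus probe sets. On the Prasanna arrays the same probe set read 3.64 and 0.50 without nitrogen and 3.09 and 3.52 with it. All 4 Varadan arrays were high and all 4 Prasanna arrays were dim.

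Os07g0217600, also protein coding, met the levels on 2 of its probe sets. The first read 13.10 and 13.20 without nitrogen and 13.15 and 12.88 with supplemented nitrogen in Varadan, against -0.57, -0.18, 3.93 and 1.87 in Prasanna. The second read 12.16, 12.30, 12.16 and 12.07 in Varadan and 2.47 to 3.12 in Prasanna. Both probe sets thus gave the same picture, with Varadan values that differed by 0.32 log2 units or less among arrays. They are the only readings of this locus among the single-locus probe sets, and their shared target means they are not independent.

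The other members in the top 10 by their lowest Varadan array differed in how much they varied within Varadan. Os11g0203900 read 11.47 and 11.39 without nitrogen and 10.95 and 10.96 with it, and its Prasanna arrays reached 4.92 at most. Os05g0168400 was the steadiest member, at 10.73, 10.78, 10.76 and 10.83 in Varadan and -0.63 to 3.91 in Prasanna. Os04g0616900 read 10.57 to 11.87, Os12g0514000 10.51 to 11.18, Os06g0318533 10.28 to 11.27, Os06g0197200 10.15 to 11.15 and Os09g0391500 9.98 to 11.59 on the Varadan arrays. The highest Prasanna values of these 5 loci were 1.99, 1.79, 2.50, 1.999 and 2.12. Outside this top 10, Os03g0722200 read 9.77 to 11.01 in Varadan and 0.32 to 0.92 in Prasanna.

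A few members varied strongly inside Varadan. Both member probe sets of Os01g0522800 were highest on the first array without nitrogen, at 12.41 against 8.68 on its replicate for one and 10.76 against 7.35 for the other. With supplemented nitrogen they read 10.26 and 10.97, and 7.86 and 8.79. Os08g0156100 ran the other way, with its lowest value of 8.40 on that first array and 10.33, 11.31 and 11.76 on the others. These, with Os09g0520000, were the 4 probe sets whose Varadan arrays spanned more than 2 log2 units.

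**Figure D2:**
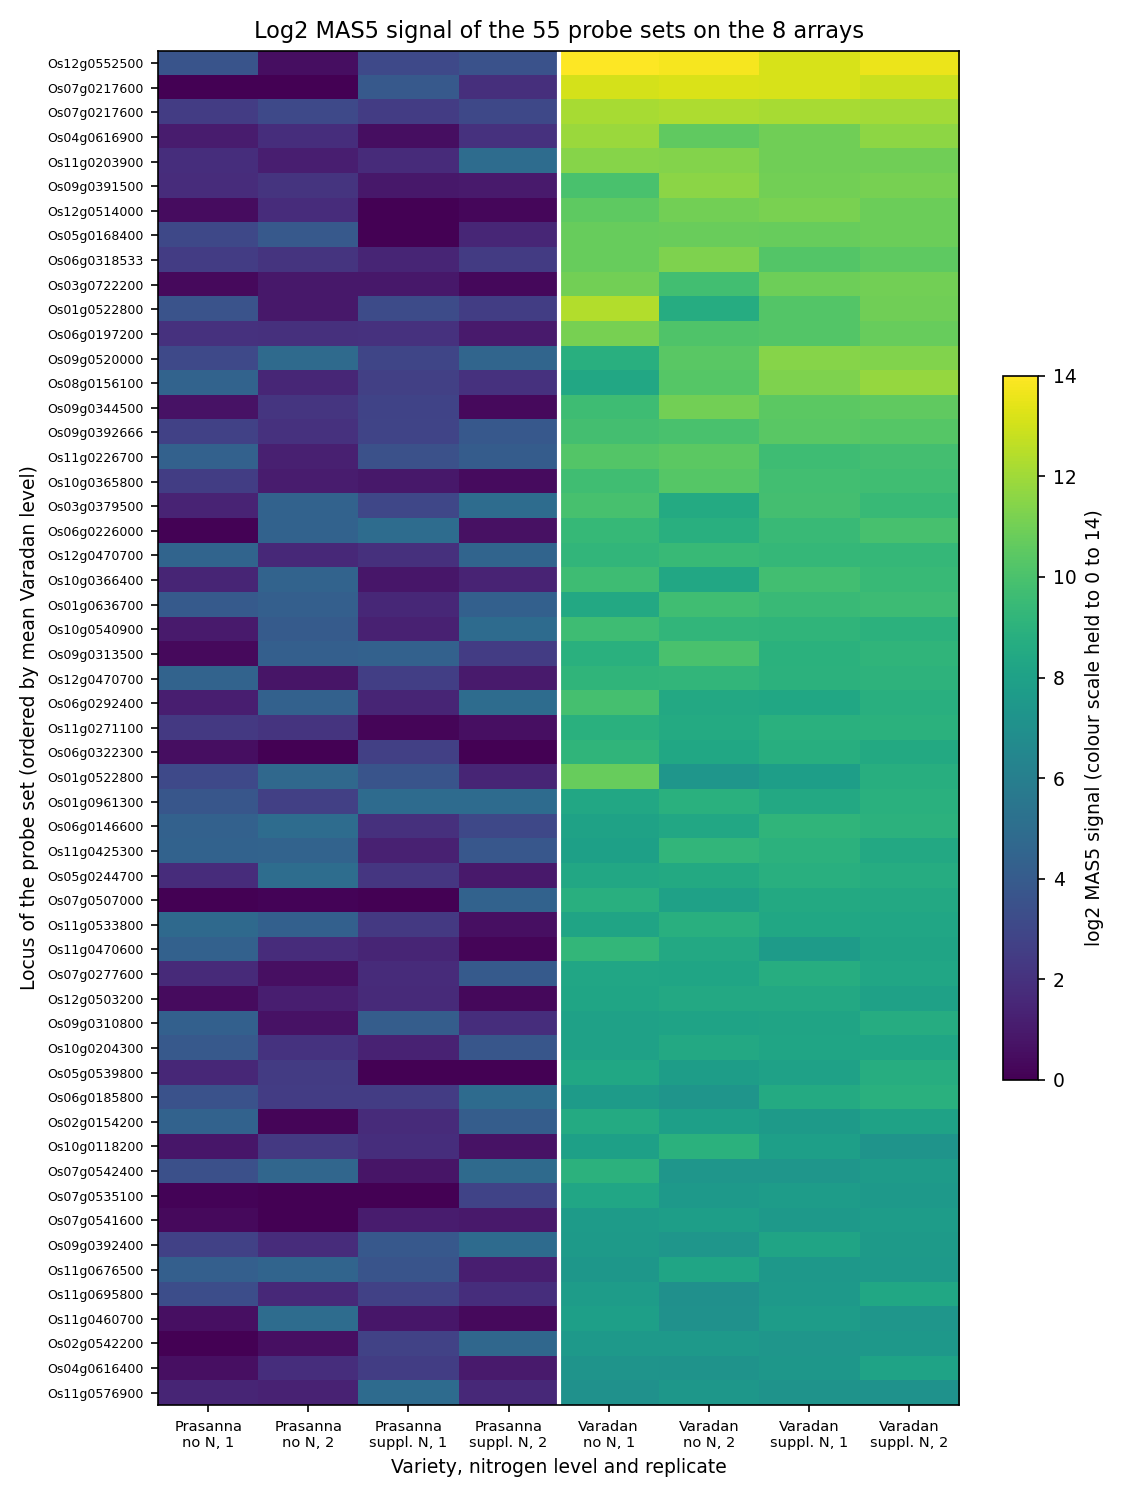
Log2 MAS5 signal of the 55 member probe sets (rows, named by locus and ordered by mean Varadan level) on the 8 arrays (columns, by variety, nitrogen level and replicate), with the colour scale held to 0 to 14. The 4 Prasanna columns are dark throughout and the 4 Varadan columns are bright, with Os12g0552500 and Os07g0217600 at the top.

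Gene names were found for 4 member loci, as synonyms in the RefSeq gene table. ASMT1 (Os09g0344500) encodes N-acetylserotonin methyltransferase, which makes melatonin in the last step of its synthesis. It read 9.67 and 11.02 without nitrogen and 10.48 and 10.56 with it in Varadan, and 0.70, 2.13, 2.83 and 0.37 in Prasanna. MPK15 (Os11g0271100) is a mitogen-activated protein kinase, of the family that relays stress and hormone signals by phosphorylation. It read 8.88, 8.53, 8.88 and 8.94 in Varadan and 0.20 to 2.33 in Prasanna. Neither locus had another single-locus probe set on the array.

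OsPP2C62 (Os07g0507000) belongs to the type-2C protein phosphatases, several of which restrain abscisic acid signalling in plants. Its member probe set read 8.82, 7.99, 8.50 and 8.45 in Varadan and -0.99 to 4.40 in Prasanna. A second probe set of the same locus read 9.17 to 10.10 in Prasanna and 9.15 to 11.08 in Varadan, so it was bright in both varieties and its arrays overlapped. OsPRDA1 (Os11g0425300) is named after an Arabidopsis protein needed for gene expression in chloroplasts. Its member probe set read 7.97 to 9.24 in Varadan and 1.28 to 4.47 in Prasanna, while its other probe set read 10.16 to 10.32 in Prasanna and 9.97 to 10.52 in Varadan. Both loci thus gave a bright signal in Prasanna on another probe set of the same annotation.

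This bears on whether the loci, and not only the probe sets, were detected in Varadan alone. Of the 52 loci, 28 had no other single-locus probe set and 24 had 37 more. At 7 of these 24 loci another probe set stood at or above 7 on all 4 Prasanna arrays, and at 10 loci on at least 1 Prasanna array. The name "detected in Varadan only" therefore does not hold at the level of the locus for these 7, which were Os02g0542200, Os03g0379500, Os05g0168400, Os07g0507000, Os09g0392400, Os11g0425300 and Os12g0552500. It could not be checked for the 28 loci read once or only by member probe sets. At Os09g0520000 the other probe set read 6.65 to 8.001 in Prasanna and 5.55 to 8.01 in Varadan. At Os06g0185800, 1 other probe set averaged 6.01 in Prasanna and 2.11 in Varadan, and another averaged 5.08 and 6.43. The arrays of the varieties overlapped in each, so no other reading of these loci separated the varieties.

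Of the 37 other probe sets, 16 at 13 loci were higher on every Varadan array than on any Prasanna array, 6 at 4 loci were lower on every one, and 15 overlapped. Over all single-locus probe sets 3.45% were higher on every Varadan array and 3.16% were lower on every one. The members' loci were chosen on this same contrast, so nothing is read from these shares.

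At 4 loci the probe sets of 1 gene pointed in opposite directions. Os12g0552500, the brightest member, had a pair of probe sets that were bright in Prasanna, at 13.56 to 14.12 and 13.85 to 14.53, and much dimmer in Varadan, at 3.84 to 6.16 and 4.38 to 6.36. A further probe set of the locus, whose identifier shares the member's stem, read 12.83 to 13.65 in Prasanna and 11.83 to 12.59 in Varadan. So 1 reading of this locus was high only in Varadan, 2 were high only in Prasanna, and 1 was high in both with Varadan 1.02 log2 units lower on average.

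Os05g0168400 showed the same arrangement. Beside the member at 10.73 to 10.83 in Varadan, one probe set read 9.77 to 10.65 in Prasanna and 3.95 to 6.28 in Varadan. One more read 11.38 to 11.74 in Prasanna and 11.40 to 11.74 in Varadan, a mean difference of 0.03. Os02g0542200 repeated it at a lower level. Its member stood at 7.38 to 7.55 in Varadan and at most 4.67 in Prasanna, a second probe set at 8.51 to 9.57 in Prasanna and 0.92 to 5.40 in Varadan, and another at 7.91 to 8.84 and 8.13 to 8.84. At Os03g0379500, a transcribed pseudogene in the RefSeq table, the member read 8.57 to 9.95 in Varadan and the other probe set 8.34 to 9.47 in Prasanna against 5.97 to 7.06 in Varadan. In each of these 4 loci every member reading was higher in Varadan and another reading was lower on every Varadan array.

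**Figure D3:**
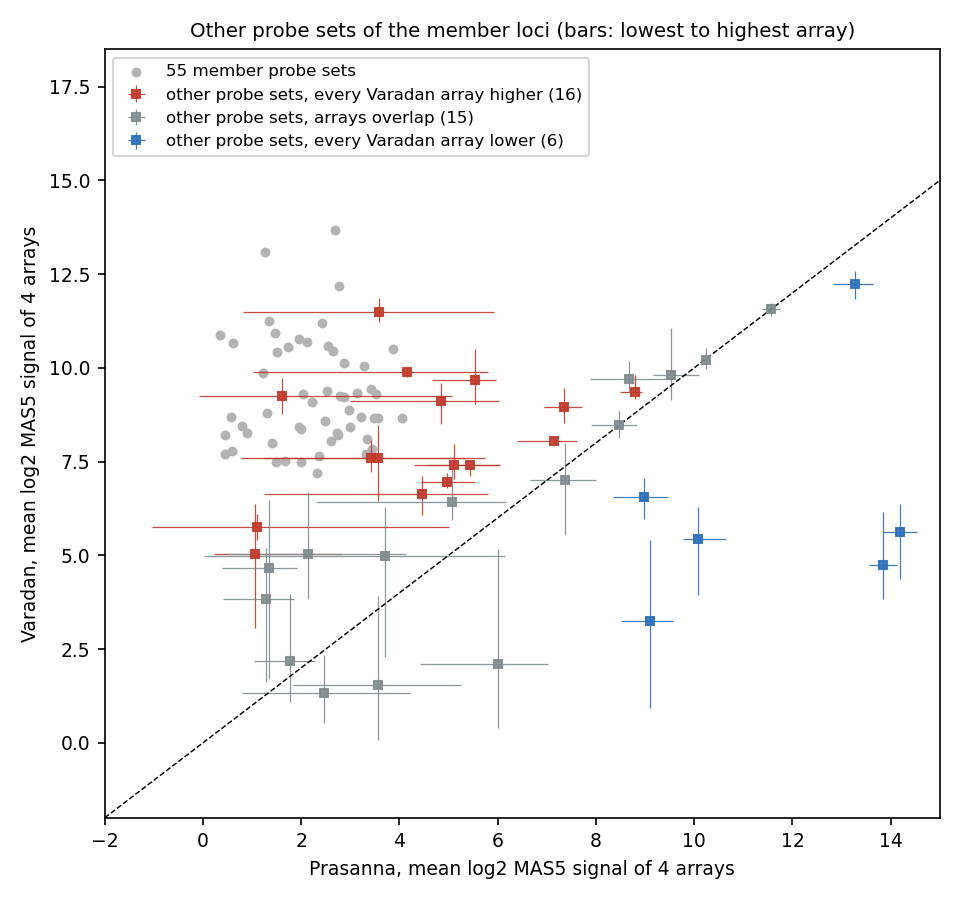
Mean log2 MAS5 signal in Prasanna (horizontal axis) and Varadan (vertical axis), 4 arrays each, for the 37 other probe sets of the member loci (squares, bars from the lowest to the highest array) and the 55 members (grey dots). The dashed line marks equal levels, 16 squares have every Varadan array higher, 6 have every Varadan array lower, and 15 overlap.

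At other loci at least 1 further probe set was also higher on every Varadan array. At Os11g0226700, which is not in the RefSeq table, a probe set outside the choice read 11.21 to 11.86 in Varadan and 0.82 to 5.93 in Prasanna, beside 9.65 to 10.46 in Varadan for the member. Os06g0292400 had 2 such probe sets, at 8.77 to 9.74 and 7.21 to 8.07 in Varadan against at most 5.07 and 5.35 in Prasanna. Os10g0540900 read 9.77 to 10.00 against at most 5.796, Os05g0539800 9.04 to 10.51 against at most 5.97, and Os09g0391500 8.50 to 9.59 against at most 6.03. These missed the choice because a Prasanna array passed 5. Not every reading of these loci separated the varieties: a further probe set overlapped at Os11g0226700, at 2.28 to 6.29 in Varadan and 0.02 to 6.15 in Prasanna, and at Os09g0391500, at 3.85 to 6.68 and 0.49 to 4.14. In all, 8 other probe sets at 7 loci stood at or above 7 on every Varadan array and below 7 on every Prasanna array.

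Another pattern was a common signal with a smaller difference. At Os10g0365800 the second probe set read 6.94 to 7.72 in Prasanna and 8.54 to 9.46 in Varadan, a mean difference of 1.60, while the member read 9.70 to 10.30 in Varadan and at most 2.52 in Prasanna. Os09g0392400, a long non-coding RNA locus, had 3 bright probe sets with mean differences of 0.57, 0.90 and 1.05, the last of them overlapping, while its member probe set read 7.35 to 8.16 in Varadan and 4.92 or less in Prasanna. Another 9 probe sets stayed below 7 on all 8 arrays and say little about either variety.

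The mirrored choice, at or above 7 on every Prasanna array and at or below 5 on every Varadan array, gave 33 probe sets at 29 loci, and it shared 0 loci with the members. Of the 29 loci, 13 had 24 other probe sets, of which 0 were higher and 12 were lower on every Varadan array. At 3 of these 13 loci another probe set stood at or above 7 on every Varadan array. For the members, 7 of 24 loci had one at or above 7 on every Prasanna array. Neither this difference between the sets nor that in how often another probe set pointed the opposite way, 6 of 37 against 0 of 24, was tested.

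By RefSeq gene type, 30 of the 52 member loci were protein coding, 8 were long non-coding RNAs and 4 were pseudogenes, 1 of these transcribed. The remaining 10 were not found in the table. Protein-coding loci made up 57.7% of the members against 83.6% of all loci on the array, and long non-coding RNAs 15.4% against 1.97%. In the mirrored set the shares were 55.2% and 17.2%, so both sets differed from the array as a whole in the same direction. The long non-coding loci included Os09g0520000 at 8.82 to 11.44 in Varadan and Os09g0391500, while Os07g0541600 (7.49 to 7.85), Os09g0392400 (7.35 to 8.16) and Os11g0460700 (7.09 to 7.91) were among the dimmer members. The pseudogene Os12g0470700 met the levels on 2 probe sets, at 9.23 to 9.45 and 8.98 to 9.22 in Varadan. Probe sets whose names mark possible binding to several transcripts (ending in _x_at or _s_at) were 9 of the 55 members, or 16.4%, against 19.5% of all single-locus probe sets.

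The members were spread unevenly over the 12 chromosomes. Chromosome 11 held 10 member loci among 1450 array loci, or 6.90 per 1000, and chromosome 9 held 7 among 1414, or 4.95 per 1000, against 2.02 per 1000 over the genome. On chromosomes 1, 2, 3 and 4, which have the most array loci, the rate was 0.80, 0.68, 0.62 and 0.88 per 1000. Chromosome 8 held a single member, Os08g0156100. In the mirrored set 9 of the 29 loci lay on chromosome 1 and 2 on chromosome 11.

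**Figure D4:**
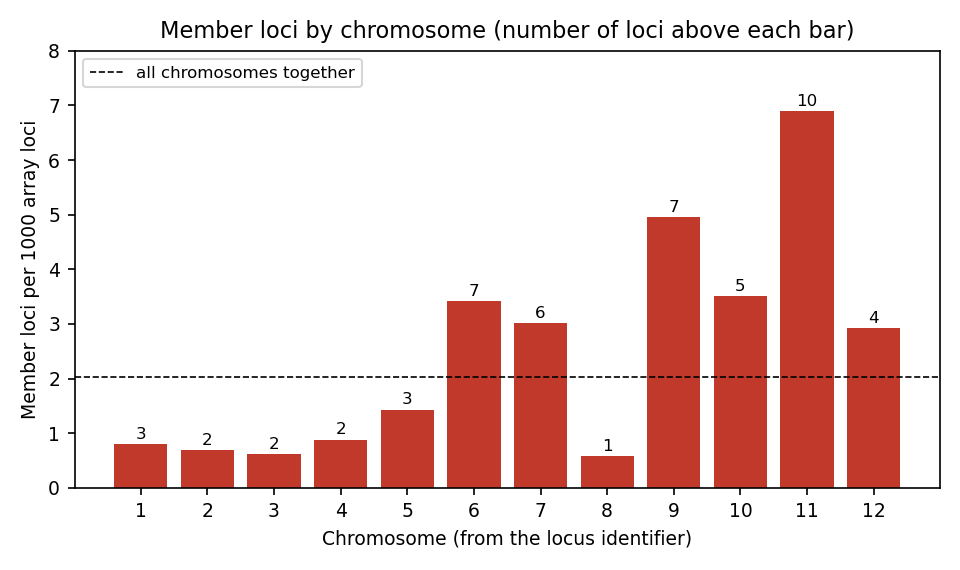
Member loci per 1000 single-locus array loci (vertical axis, from 0) on each of the 12 chromosomes, with the number of member loci above each bar. The dashed line is the rate over all chromosomes, 2.02, and chromosome 11 stands highest at 6.90.

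Some members were neighbours. Taking successive member loci whose identifier numbers differ by at most 1000, which is a measure of order and not of distance in bases, 9 loci fell into 4 runs. These were Os04g0616400 with Os04g0616900, Os07g0541600 with Os07g0542400, Os10g0365800 with Os10g0366400, and the trio Os09g0391500, Os09g0392400 and Os09g0392666. The mirrored set had 0 runs. Around the runs, 57 probe sets of 39 other loci were on the array. Of these, 10 were higher and 1 lower on every Varadan array, beside the 3.45% and 3.16% of all single-locus probe sets. Some of the 10 have names ending in _x_at, which marks possible binding to several transcripts. The runs were placed by this same contrast between the varieties, so nothing is read from these counts.

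The neighbours differed from run to run. On chromosome 7, Os07g0541500 averaged 9.02 in Varadan and 5.72 in Prasanna, Os07g0541700 averaged 10.58 and 6.28, and Os07g0541800 averaged 5.42 and 2.68, with every Varadan array higher in each. A probe set of Os07g0541900, next to them, went the other way at 6.76 and 7.88. On chromosome 9, both probe sets of Os09g0392800 were higher on every Varadan array, at 9.99 against 8.30 and 8.72 against 6.03, while Os09g0392000, inside the same run, averaged 11.42 and 11.14 with overlapping arrays. On chromosome 4, Os04g0616700 had 2 of its 6 probe sets higher on every Varadan array, at 9.48 against 7.23 and 6.12 against 1.72. Near the run on chromosome 10 none of 3 other probe sets separated the varieties. Bright loci with like levels in both varieties thus lay inside or beside the runs.

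The difference between nitrogen levels within Varadan was not itself part of the choice, and it was tested. The choice did bound it: a probe set that fell below 7 on any Varadan array, at either nitrogen level, could not be a member, so strong responses that cross this level are left out by construction. It asks whether the signal that only Varadan shows on these probe sets moves with nitrogen supply. With limma, the 4 group means were fitted for each of the 34333 probe sets past a filter on low values, of which 52 were members. The filter was a mean log2 of at least 4.48 over the 8 arrays, and the members that missed it were Os05g0539800, Os07g0535100 and Os07g0541600.

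None of the 52 members passed at an adjusted p of 0.05 in limma, in either direction. An unadjusted p under 0.05 was reached by 0 of them. The background was low too: 0% of all probe sets tested passed upward and 0.00291% downward, and 8.94% had an unadjusted p under 0.05. The smallest limma adjusted p among the members was 0.581. Log2 differences, without nitrogen minus with it, ran from -2.17 to 0.94 with a median of -0.03, against a median of -0.06 over all probe sets tested. They were positive for 25 members and negative for 27, and 49 of the 52 were smaller than 1 in size. The median size of the difference was 0.31 for the members, 0.51 for all probe sets tested and 0.373 for the 18530 tested ones at or above 7 on every Varadan array.

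Both arrays without nitrogen lay above both supplemented arrays in 9 of the 55 members and below both in 11. Over all single-locus probe sets the shares were 19.5% and 22%. Together this made 36.4% of the members and 41.5% of all single-locus probe sets.

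The precision of this test was limited by the choice itself. The model takes 1 spread per probe set from all 4 groups, and the dim, variable Prasanna values widen it for the members. The median standard error of a member's nitrogen difference was 0.972, against 0.383 for tested probe sets at or above 7 on every Varadan array. In a fit on the 4 Varadan arrays alone the median was 0.407. There 4 of the 52 members and 2564 of the 34333 probe sets tested had an unadjusted p under 0.05 in limma. After adjustment 0 members and 0 of all probe sets tested passed, and the smallest adjusted p of a member was 0.638.

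Named by the rule were the members with the largest differences among those whose arrays did not overlap. Os08g0156100 read 8.40 and 10.33 without nitrogen and 11.31 and 11.76 with it, a difference of -2.17 ± 1.05 (SE; limma adjusted p = 0.587). The long non-coding Os09g0520000 read 8.82 and 10.39 against 11.44 and 11.33, a difference of -1.78 ± 0.84 (limma adjusted p = 0.581). In both, the first array without nitrogen was much lower than its replicate, and without that array the differences were -1.21 and -0.99. Os06g0185800 had tighter replicates, at 7.66 and 7.32 against 8.55 and 8.87, and stood at -1.22 ± 0.90 (limma adjusted p = 0.70). Os06g0146600 stood at -0.86 ± 0.60 and Os06g0226000 at -0.60 ± 1.69, the latter at -0.33 without the second array without nitrogen and at -0.38 without the second supplemented one.

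In the other direction the differences were smaller. Os11g0470600 read 9.30 and 8.47 without nitrogen and 7.68 and 8.20 with it, a difference of 0.94 ± 1.07 (limma adjusted p = 0.799). Os10g0118200 stood at 0.89 ± 1.04, Os11g0226700 at 0.62 ± 0.93, Os06g0318533 at 0.59 ± 0.55 and the brightest member Os12g0552500 at 0.59 ± 0.89. Single arrays weighed on 4 of these 5. Without the first array without nitrogen Os11g0470600 stood at 0.53 and Os10g0118200 at 1.37. Without the second one Os10g0118200 stood at 0.41 and Os06g0318533 at 0.315. Without the second supplemented array Os10g0118200 stood at 0.58, and without the first supplemented array Os12g0552500 stood at 0.36. None of the 10 named differences passed the adjusted threshold.

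The difference of the nitrogen effects between the varieties passed for 0 of the 52 members in limma (smallest adjusted p = 1), and 5 had an unadjusted p under 0.05 against 2.08% of all probe sets tested, of which 0% passed in either direction. On these probe sets the Prasanna side of that comparison rests on dim signals, which spread widely between arrays. For the members it therefore says little about nitrogen in Prasanna. The same holds for the nitrogen effect within Prasanna, where 0 of the 52 members passed in limma, against 0% of all probe sets tested. There 8 of the 52 members and 2276 of the 34333 probe sets tested (6.63%) had an unadjusted p under 0.05. For the difference, the 2.08% stood for 714 of 34333. The highest mean Prasanna signal of a member, 4.05, lay below the filter of 4.48 on the mean of all 8 arrays. The members thus passed it through their bright Varadan arrays, which other probe sets need not have done. Their counts are not comparable with these backgrounds, and nothing is read from them.

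**Figure D5:**
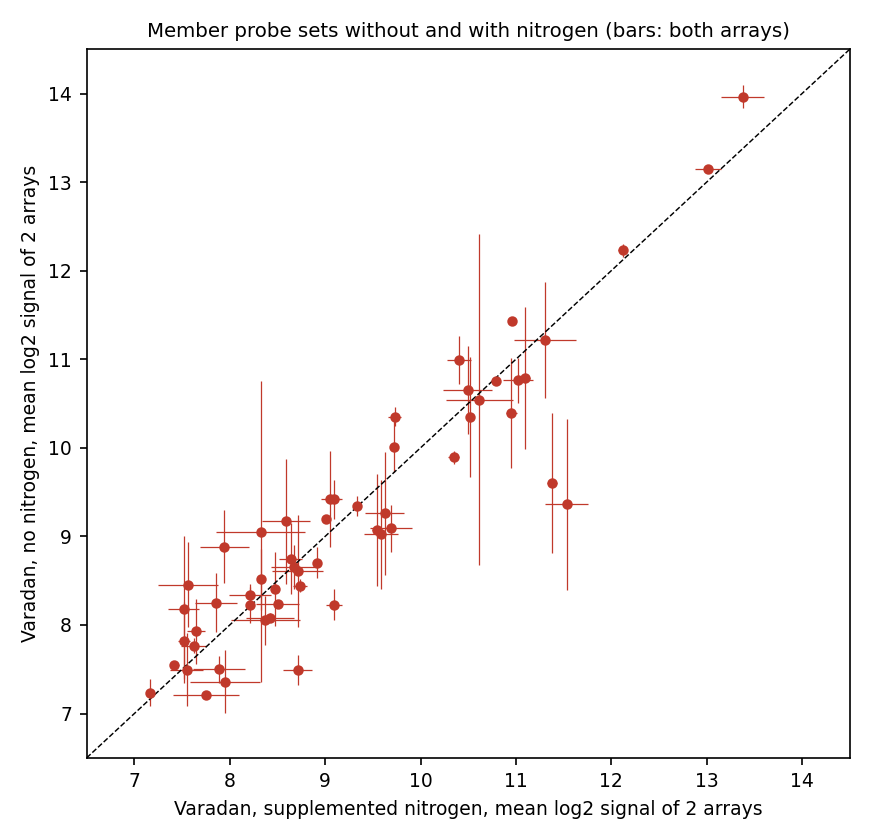
Mean log2 MAS5 signal in Varadan with supplemented nitrogen (horizontal axis) and without nitrogen (vertical axis), 2 arrays each, for the 55 member probe sets, with bars spanning both arrays. The dashed line marks equal levels, and most points lie within 1 log2 unit of it.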

How the data were processed

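Shoot RNA was measured on 8 arrays. The submitters' processing notes name MAS5 for the signals and give no version. The authors deposited log2 values for 57381 probe sets, and a second deposited table holds the same signals as linear intensity, whose log2 differed by at most 3.0e-08. MAS5 subtracts mismatch signal, which spreads dim values widely on the log2 scale. No detection calls were used.

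Members were found from the log2 table. Gene types and synonyms came from a RefSeq table of another assembly, in which 42 of the 52 member loci were found by gene ID, so no coordinates are given. Nitrogen effects were fitted with limma 3.58.1 in R 4.3.3 (lmFit, eBayes with trend) over all 4 groups, with 4 residual degrees of freedom. The percentile of the filter (40) was taken over the whole table, and 187 control probe sets were not tested. P-values were adjusted by Benjamini-Hochberg over all probe sets tested. The fit was tested on simulated data. The members, lists and tests were chosen with earlier results of these data known. Planned gene descriptions and sequence features were not analysed here.

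Named were members with a gene name, the 10 with the highest lowest Varadan array, those with several or discordant probe sets, those in runs, those next to the levels and, as none was called for nitrogen, the 5 largest non-overlapping differences per direction. Alternatives were other levels, quantile normalization, other filters, no trend, array weights, a replicate block and leaving out arrays.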

Additional observations from a re-analysis of the deposited data

Results flagged for a closer look

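A signal of the same kind appeared in probe sets outside the comparisons. Of 21767 probe sets that the annotation pairs with no locus, 6 stood at or above 7 on every Varadan array and at or below 5 on every Prasanna array. The steadiest bright one read 10.68 to 11.12 in Varadan and -0.34 to 2.60 in Prasanna. Another read 9.44 to 9.89 in Varadan and at most 1.12 in Prasanna. The mirrored levels held for 7 probe sets without a locus.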

How the results depend on the processing

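The number of members depended on the levels and on single arrays. Levels of 6.5 and 5.5 gave 112 probe sets at 105 loci, and levels of 7.5 and 4.5 gave 32 at 31 loci. Leaving out 1 array gave 56 to 87 probe sets at 53 to 82 loci, as fewer arrays had to meet the rule, and the highest counts came without Prasanna with supplemented nitrogen, replicate 1. After quantile normalization 47 probe sets met the levels, 42 of them among the 55. The calls for nitrogen in Varadan and for the interaction stayed at 0 members under all 16 and 15 alternatives in limma, with smallest adjusted p of 0.293 to 0.962 and 0.867 to 1. This includes the replicate block (0 members called), a term for the replicate number. In that fit of nitrogen in Varadan, 1 of the 52 members had an unadjusted p under 0.05 in limma. So did 3927 of the 34333 probe sets tested. Same-numbered arrays of the 2 nitrogen levels correlated in their deviations at r = -0.04 in Varadan and 0.11 in Prasanna, across probe sets, so the numbers were not taken to pair them. Between the no-nitrogen arrays of the varieties r was 0.46. Without both first no-nitrogen arrays, 93 of all probe sets tested were higher and 277 lower in Varadan, against 0 and 1, and the cause was not tested. Calls appeared within Prasanna too, both among all probe sets tested and among the members, whose signals there were dim. This setting leaves 1 array in each no-nitrogen group, so nothing is read from its calls. The median nitrogen difference moved to 0.12 with a filter at the 60th percentile, which left 8 members. All 10 named differences kept their sign in all alternatives run for them. A lone array was taken to vary like the other groups. The number of arrays limits the precision, and no depth applies.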
